A study of Mus musculus with 18 samples.

Results

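Hippocampi of mice reared for 12 months (12 m) were compared with hippocampi of young mice kept for 28 days in normoxia (Ctrl28). The comparison rests on 6 arrays, 3 of each group, chosen by their labels from the 18 arrays of the series. All mice were C57Bl/6 by the labels, and C57BL/6J males by the methods. Ctrl28 mice began at 10 weeks of age and spent 28 days in normoxia with no hypoxia treatment. The 12 m mice were reared for 12 months at the same institution and were not treated either. The other 12 arrays hold untreated young mice (Ctrl) and mice exposed to intermittent hypoxia for 5 days (IH5D), for 5 days with 2 days of recovery (IH5DR2) or for 28 days (IH28D), which was the treatment that Ctrl28 served as control for. The study included 12 m mice to set intermittent hypoxia beside aging, and Ctrl28 is the second of its young controls. The labels do not say whether each array holds the RNA of a separate mouse, so a p-value here reflects only how much arrays vary. The main test took that spread from all 18 arrays of the series, not from these 6 alone. The hour of killing was not stated for either group. The Ctrl28 arrays carry later record numbers than all the others, and a batch that may lie behind this cannot be told apart from the group.

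The hippocampus holds the pyramidal neurons of the CA fields and the granule cells of the dentate gyrus, with astrocytes, microglia, oligodendrocytes and vessels around them. It borders on the ventricle, whose wall is lined by ciliated ependymal cells and carries the choroid plexus, the epithelium that secretes cerebrospinal fluid. In the aging rodent brain, transcripts of glia, complement and synapses are those most often described as changing.

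Signals are MAS5 values of probe sets on Affymetrix mouse genome arrays, scaled by the authors to a common mean of about 100 on each array. They can be compared between arrays for one probe set but not between genes. A log2 difference of 1 is a doubling of the signal. A signal below 20 counted as not expressed in the methods, so folds of genes with such signals are given as bounds, with every signal below 20 set to 20. Log2 differences are as measured.

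One array in each group stood apart. Ctrl28 array 1 had the widest gap between 3' and 5' probe sets of Actb and Gapdh, a log2 measure that widens as RNA degrades. The gap was 2.39 on that array, 0.822 and 0.966 on the other Ctrl28 arrays, and 0.617 to 0.862 in 12 m, against 0.328 to 0.535 in the other 4 groups. The median within-group SD over genes was 0.303 in Ctrl28 and 0.152 to 0.192 in the other groups. 12 m array 3 differed in the markers of regions. C1ql2, a secreted protein of dentate granule cells, had signals of 228.3, 211.6 and 14.7 on 12 m arrays 1 to 3 and of 158.8 to 227.9 in Ctrl28. Fibcd1, a marker of CA1, stood at 192.5, 207.7 and 5.05 in 12 m and at 129.1 to 184.6 in Ctrl28. Both were below 20 on 12 m array 3 alone. The summed signal of 26 genes of neocortex was 17496 on 12 m array 3 and 9756 to 10023 on the other 12 m arrays, and that of 21 genes of striatum and septum was 6292 against 2895 to 2920. In Ctrl28 these sums were 9295 to 13065 and 3899 to 4803. These 2 markers were thus present on 5 of the 6 arrays and low on the sixth, which had the highest sums for neocortex and for striatum and septum. The sum of 25 pyramidal cell genes was 9218 on 12 m array 3 and 14024 to 14215 on the other 12 m arrays. For 25 granule cell genes it was 4780 against 7632 to 7900. The sum of thalamus and habenula was not raised, at 2109 against 1976 to 2231. Values without Ctrl28 array 1 or 12 m array 3 are given beside the results that they moved most.

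Of 11656 genes tested, 937 had higher and 967 had lower signals in 12 m than in Ctrl28 (limma, adjusted p below 0.05), which is 8.04% and 8.3% of the genes. The groups did not overlap for 1817 of these 1904 genes and for 3638 of all 11656. Without Ctrl28 array 1 the counts were 1102 (9.45%) and 916 (7.86%). Without 12 m array 3 they dropped to 636 and 509, and without 12 m array 2 to 645 and 600. Rises of 459 genes (3.94%) and falls of 329 genes (2.82%) passed with all arrays and with each of the 6 arrays left out in turn. A fit of the 6 arrays alone left 172 genes. It estimates the spread from fewer arrays, among them those of Ctrl28, the group of widest spread (median SD 0.303). Without Ctrl28 array 1, a choice made after seeing the data, that fit left 1341 genes. The parts of the spread and of the number of arrays were not tested. The median log2 difference of all genes was -0.029. With each array centred on its median this became -0.235, and the split of called genes moved from 49.2% rises to 20.6% rises (572 rose and 2202 fell), so the direction of small shifts depends on the scaling. Shifts of gene lists are therefore read against the median of all genes.

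**Figure D1:**
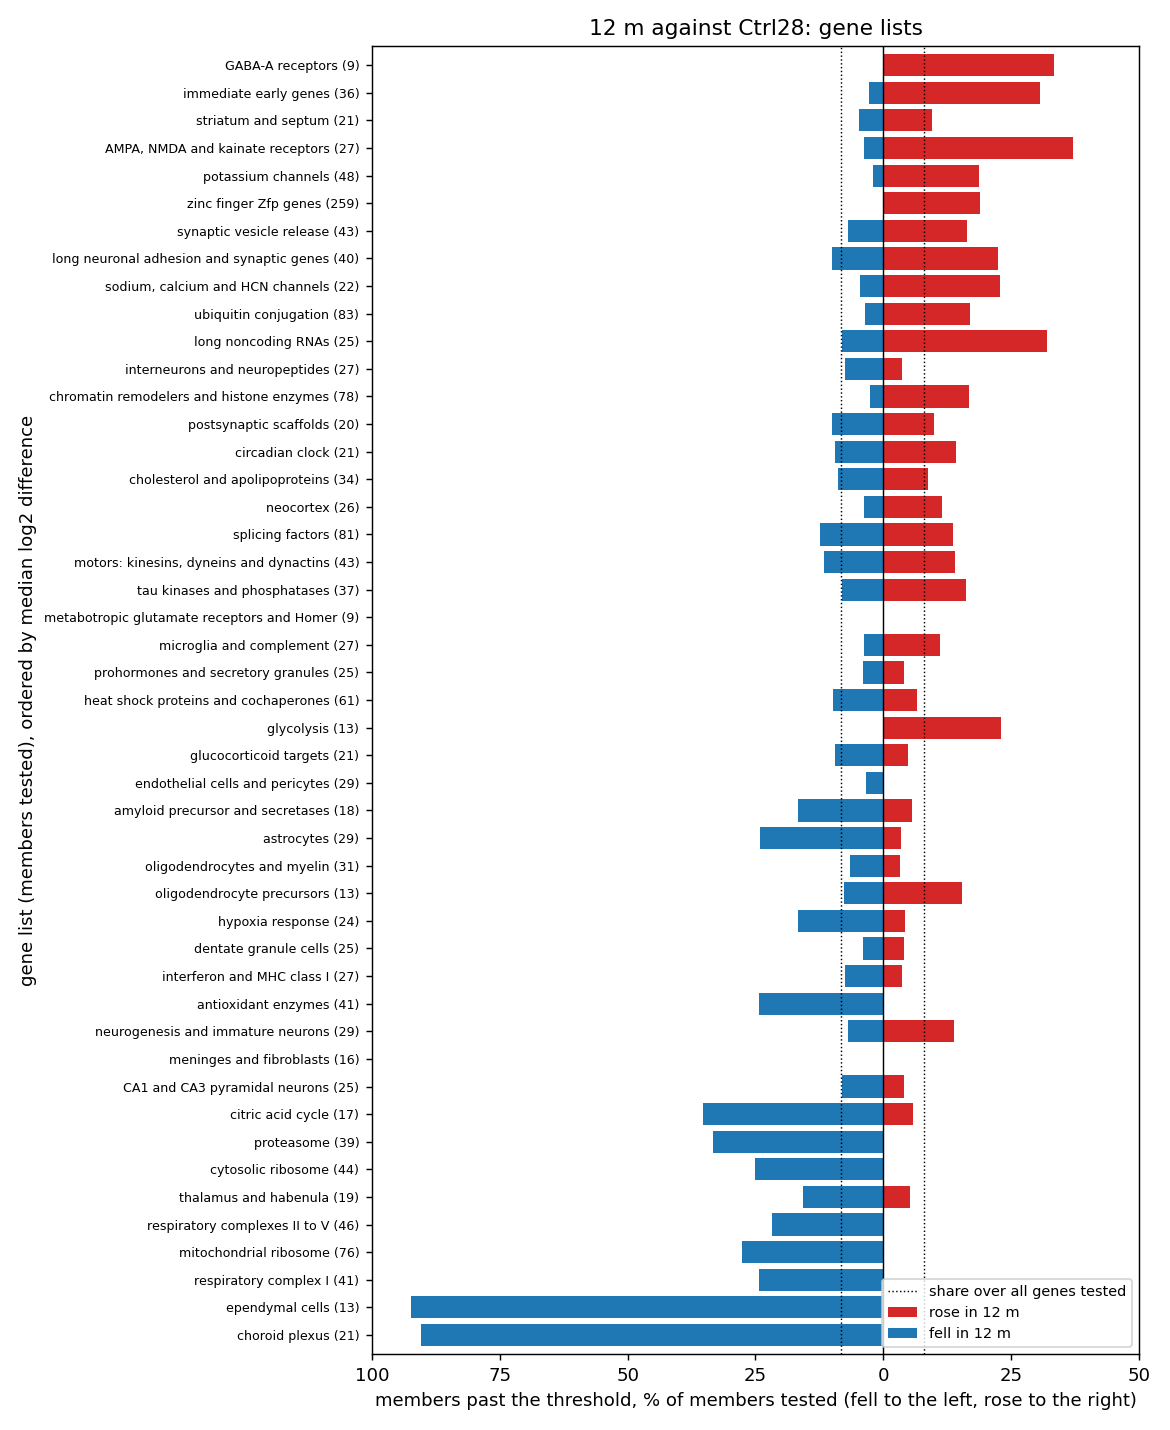
Bars show the share of tested members of each gene list that fell (left, blue) or rose (right, red) in 12 m against Ctrl28, as percent of members tested, for lists with at least 9 members tested; dotted lines mark the shares over all genes tested. Choroid plexus and ependymal lists lie far to the left with 19 of 21 and 12 of 13 members lower, and receptor, immediate early gene and long noncoding RNA lists reach farthest to the right.

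Transcripts of the choroid plexus had the largest median difference of the 48 gene lists. Of 21 choroid plexus genes tested, 19 fell (90.5%, beside 8.3% of all genes) and none rose, with a median log2 difference of -4.02. Ttr, which encodes the thyroid hormone carrier transthyretin that the plexus secretes, had signals of 1602, 564.9 and 857.8 in 12 m and of 17270, 14440 and 16220 in Ctrl28. The groups did not overlap, and Ttr was 17.3-fold lower in 12 m (log2 -4.12, SE 0.69, adjusted p = 0.00129). Clic6, an intracellular chloride channel protein, stood at 15.6, 14.3 and 31.3 in 12 m and at 710.5, 578.5 and 521.1 in Ctrl28, which makes it at least 25.8-fold lower. Kl, which encodes klotho, stood at 45.6, 38.6 and 4.53 against 451.6, 440.2 and 395.7, and was at least 13.1-fold lower. Otx2, a homeobox factor of choroid epithelium, was at 0.421 to 5.84 on all 12 m arrays and at 104.1 to 136.2 in Ctrl28, a fall of at least 5.95-fold. The secreted peptide gene Ecrg4 went from 989.9 to 2443 in Ctrl28 down to 25.1 to 31.5 in 12 m, a 50.5-fold fall. Calml4 (at least 15.4-fold, adjusted p = 0.00245), the bicarbonate transporter gene Slc4a5 (at least 3.68-fold, 0.00199) and the folate receptor gene Folr1 (at least 11.4-fold, 0.0175) fell as well. Folr1 did not pass without 12 m array 3 (log2 -3.82, adjusted p = 0.0516). The number of choroid plexus genes that fell was 14 without Ctrl28 array 1, 12 without 12 m array 3 and 11 without 12 m array 1. In bulk RNA, fewer cells of a type and less RNA per cell cannot be told apart.

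Choroid plexus signal also varied between arrays within the other groups. The summed signal of the 21 genes was 1228 to 2162 in 12 m and 19839 to 24797 in Ctrl28. It ranged from 2445 to 22186 in Ctrl and from 5637 to 20613 in IH28D, and the third array of each group was the low one. Ttr was at 1584 on Ctrl array 3, within the range of the 12 m arrays. On every 12 m array 10 to 12 of the 21 genes had signals below 20, against none on the Ctrl28 arrays.

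Ependymal genes fell along with those of the plexus. Of 13 tested, 12 fell (92.3%, beside 8.3% of all genes, median log2 -1.58), most of them parts of motile cilia. Mia, a secreted protein gene, had signals of 17.9, 17.2 and 16.9 in 12 m and of 167.7, 62.1 and 84.9 in Ctrl28 (log2 -2.47, adjusted p = 0.00123). Cfap126, a cilium protein, stood at 25.8, 18.8 and 23.3 against 221.5, 88.6 and 74.3 (log2 -2.34, adjusted p = 0.00131). Dynlrb2, a dynein light chain, stood at 43.5, 27.7 and 28.9 against 283.4, 107.0 and 103.4. In these 3 genes Ctrl28 array 1 was the highest and all 12 m arrays lay below all Ctrl28 arrays. Pifo (log2 -2.67) and the radial spoke gene Rsph1 (-1.43) fell as well. The count of ependymal genes that fell was 5 without Ctrl28 array 1 and 5 without 12 m array 3.

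**Figure D2:**
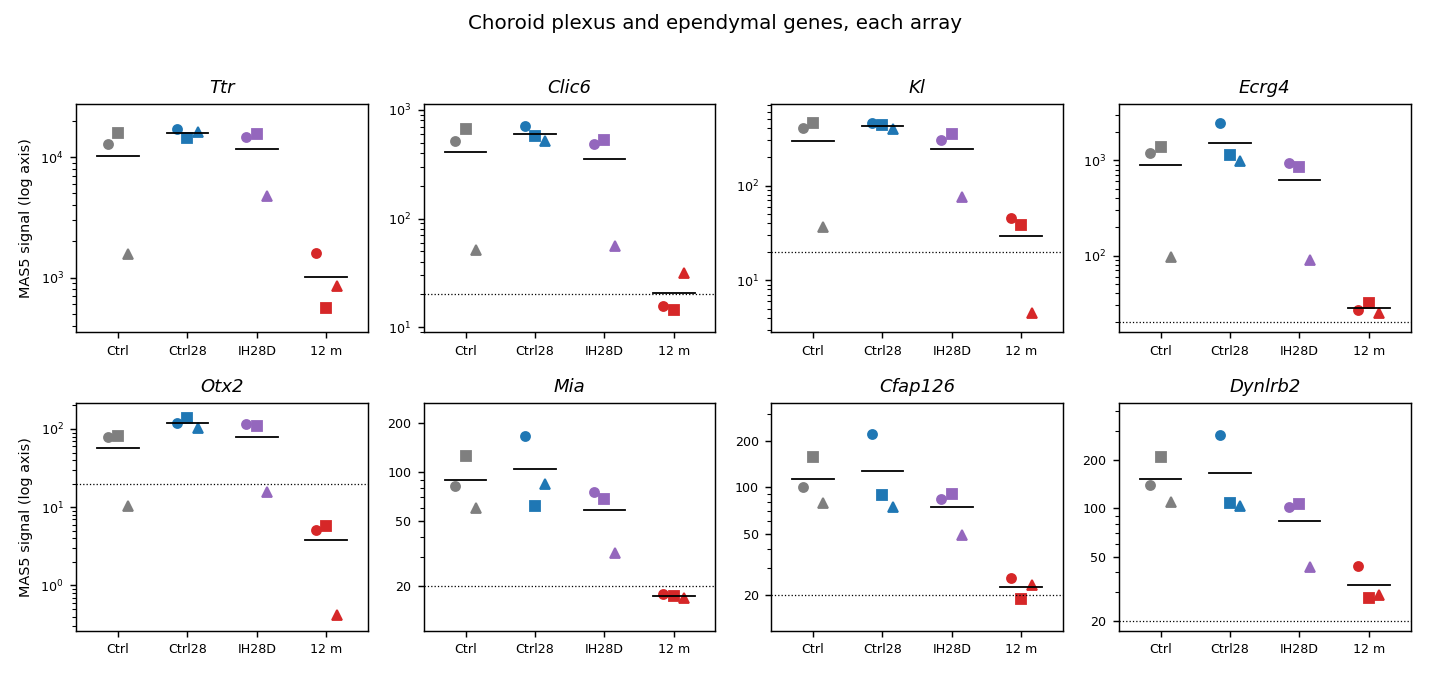
Each panel plots the MAS5 signal of one gene (log axis) on the 3 arrays of Ctrl, Ctrl28, IH28D and 12 m; circles, squares and triangles are arrays 1, 2 and 3, bars are group means and the dotted line is a signal of 20. The 12 m arrays lie below the Ctrl28 arrays in all 8 genes, and array 3 of Ctrl and of IH28D is low for the choroid plexus genes.

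Other genes among the 15 largest falls are known from epithelia or from outside the hippocampus. Reg3b, a secreted antibacterial lectin, had signals below 1 on all 12 m arrays and of 224.5, 117.3 and 42.8 in Ctrl28 (adjusted p = 0.0163, or 0.0629 with the gap of each array in the fit). It was at 0.299, 2.37 and 168.3 in Ctrl, so single arrays of the first control were as low as 12 m. The beta-defensin gene Defb11 stood at 0.625 to 3.55 in 12 m and 60.6 to 201.4 in Ctrl28. Zic1, a zinc finger factor of the developing nervous system, stood at 286.3, 198.5 and 208.0 in 12 m and at 1285, 883.4 and 1028 in Ctrl28 (log2 -2.21, adjusted p = 0.0054). Vat1l (log2 -2.17) and Mdfic (-2.17) also fell. Choroid plexus signal was lowest on the 12 m arrays as well, and its part in these falls was not tested. On Ctrl array 3, where plexus signal was lowest within Ctrl, Reg3b was the highest of its group. Defb11, Vat1l and Mdfic were the lowest of theirs on that array, and Zic1 lay between the others.

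Of 41 antioxidant enzymes tested, 10 fell (24.4%, beside 8.3% of all genes) and none rose, with a median log2 difference of -0.23. Gpx8, a glutathione peroxidase of the endoplasmic reticulum, had signals of 32.1, 12.7 and 14.3 in 12 m and of 119.8, 134.3 and 116.6 in Ctrl28, at least 5.27-fold lower. Its signals were 71.0, 98.0 and 40.3 in Ctrl and 92.4, 73.2 and 33.4 in IH28D. Array 3 was the low one there, as for the choroid plexus genes, and the part of the plexus signal in this fall was not tested. Gss, the last enzyme of glutathione synthesis, stood at 52.2, 42.8 and 40.4 against 99.9, 81.9 and 84.8 (log2 -0.98, adjusted p = 0.00129). Both genes had lower signals on every 12 m array than on any Ctrl28 array, and the number of antioxidant genes that fell was 9 without Ctrl28 array 1, where 1 rose, and 6 without 12 m array 2 or 3.

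The 15 largest rises named here were of mixed function. Rbm26, which encodes an RNA-binding protein, had the smallest p of all genes, with signals of 324.6, 331.7 and 353.3 in 12 m and of 76.7, 81.8 and 90.7 in Ctrl28 (log2 2.02, SE 0.18, adjusted p = 1.49e-05). The mean of all its probe sets gave 1.06 (adjusted p = 0.00747). Gucy1a2, a subunit of the guanylate cyclase that senses nitric oxide, had the largest rise among genes that passed with each array left out and reached a mean signal of 100, from 34.0, 64.3 and 78.9 in Ctrl28 to 243.6, 279.6 and 378.7 in 12 m (log2 2.41, adjusted p = 0.000187). Among the 15 largest rises were also Esf1, a nucleolar protein of ribosomal RNA processing (2.11), Casp8ap2, a factor of histone mRNA processing (1.99), and the fucosyltransferase gene Fut9 (2.05). Ccdc88a, which encodes the actin-binding Akt substrate girdin (2.08), and the lipid phosphatase gene Mtm1 (2.06) belonged to them too. Ttc14 (2.29), Mfap3l (1.91) and the unnamed transcript B230209E15Rik (2.27) were others, together with 4 Zfp genes.

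Zinc finger genes of the Zfp series, most of which encode KRAB-type repressors, rose in 49 of 259 cases (18.9%, beside 8.04% of all genes) and fell in none, with a median log2 difference of 0.24. Zfp950 had signals of 392.1, 382.5 and 382.2 in 12 m and of 68.6, 75.0 and 133.8 in Ctrl28 (log2 2.13, adjusted p = 0.000156). Zfp995 (2.33), Zfp942 (2.27), Zfp948 (2.21), Zfp758 (2.03) and Zfp292 (1.59) rose as well, the first 4 of them from Ctrl28 signals that reached down to 12.7 to 15.6. Without Ctrl28 array 1 the list held 43 rises and 4 falls, after median centring 42 rises and 17 falls, and after quantile normalization 43 rises and 9 falls. The absence of falls therefore held for the authors' scaling with all arrays and not for these alternatives.

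Chromatin genes rose in 13 of 78 cases (16.7%, beside 8.04% of all genes) and fell in 2, with 5 falls without Ctrl28 array 3 and 9 rises and 8 falls after median centring. Atrx, a remodeler of heterochromatin, had signals of 1164, 1191 and 1199 in 12 m and of 267.8, 393.5 and 512.8 in Ctrl28 (log2 1.65, adjusted p = 0.00042). Setd2, the methyltransferase of histone H3 at lysine 36, rose by a log2 difference of 1.10, and the histone deacetylase gene Hdac7 by 1.34. Brd2, a reader of acetylated histones, went the other way, with signals of 202.5, 234.0 and 212.4 in 12 m and of 693.8, 632.8 and 549.1 in Ctrl28 (log2 -1.53, adjusted p = 3.78e-05). Splicing factors had 11 rises (13.6%) and 10 falls (12.3%, beside 8.3% of all genes) among 81, with 6 falls without 12 m array 2 or 3 and 7 rises and 19 falls after median centring. U2af1, which recognises the 3' splice site, fell from 548.5 to 604.2 in Ctrl28 to 310.9 to 374.6 in 12 m (log2 -0.76, adjusted p = 0.00051). The splicing kinase gene Prpf4b (1.15), Tra2a (0.70), Luc7l2 (1.10) and Prpf39 (1.67) rose. The median log2 difference of the chromatin list (0.14) and that of the splicing list (0.06) turned to -0.07 and -0.15 after median centring.

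Long noncoding RNAs rose in 8 of 25 cases (32%, beside 8.04% of all genes) and fell in 2. The count of falls was 4 without Ctrl28 array 2 and 1 without 12 m array 3, and after median centring 6 rose and 4 fell. Malat1, a transcript of nuclear speckles, had signals of 6700, 12890 and 10800 in 12 m, of 1117, 4029 and 4066 in Ctrl28 and of 1055, 725.3 and 905.0 in Ctrl. The groups did not overlap, and the log2 difference from Ctrl28 was 1.89 (SE 0.35, adjusted p = 0.00233), or 1.27 without Ctrl28 array 1. Neat1, the scaffold of paraspeckles, stood at 470.5, 431.1 and 453.1 in 12 m and at 87.2, 129.4 and 211.1 in Ctrl28 (1.76, 0.00197). Snhg14, the long transcript that hosts the small nucleolar RNAs of the imprinted Ube3a region, stood at 699.1, 748.5 and 851.8 against 158.6, 240.5 and 326.8 (1.72, 0.000967). These 3 RNAs were lowest on Ctrl28 array 1 within their group. Meg3, from the imprinted Dlk1-Dio3 region, was 3753, 4475 and 4672 in 12 m and 2870, 2246 and 2531 in Ctrl28 (0.76, 0.0114), with Ctrl28 array 1 the highest there. Rian, from the same region, fell from 670.8, 1982 and 1935 to 489.1, 497.4 and 353.3 (-1.63, 0.00181), but the mean of all its probe sets gave 0.24 (adjusted p = 0.567), so its probe sets disagree.

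**Figure D3:**
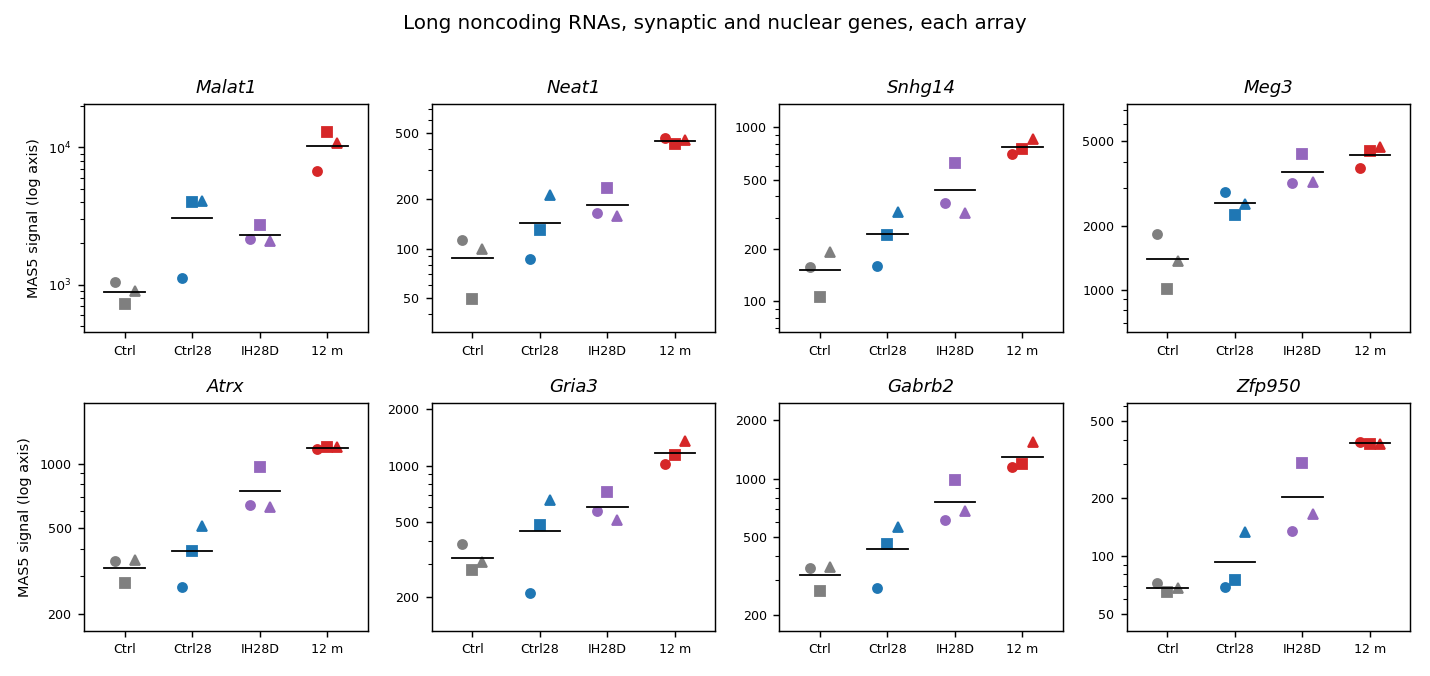
MAS5 signals (log axis) of 4 long noncoding RNAs, the remodeler gene Atrx, the receptor genes Gria3 and Gabrb2, and Zfp950 on the 3 arrays of Ctrl, Ctrl28, IH28D and 12 m; circles, squares and triangles are arrays 1, 2 and 3 and bars are group means. All 12 m arrays lie above all Ctrl28 arrays in each gene, and Ctrl28 array 1 is the lowest of its group in all of them but Meg3.

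Of 27 genes of AMPA, NMDA and kainate receptors and their auxiliary proteins, 10 rose (37%, beside 8.04% of all genes) and 1 fell. The median log2 difference was 0.28 from Ctrl28 and -0.22 from Ctrl. After median centring 9 genes rose against Ctrl28 and 3 fell, with a median of 0.077. The mean log2 signal of the list was 7.07 to 7.21 in 12 m, 6.74 to 6.78 in Ctrl28 and 7.14 to 7.19 in Ctrl. The list as a whole was thus higher than in Ctrl28 but not than in Ctrl. Gria3, an AMPA receptor subunit, had signals of 1025, 1137 and 1357 in 12 m and of 211.4, 485.7 and 658.9 in Ctrl28 (log2 1.52, adjusted p = 0.0026). The subunit gene Gria4 stood at 246.6, 236.8 and 404.3 against 86.8, 132.5 and 121.6 (1.36, 0.00233). Cacng2, which encodes the AMPA receptor partner stargazin, stood at 238.5, 245.6 and 445.7 against 141.9, 110.8 and 147.6 (1.16, 0.00195). Array 3 was the highest 12 m array for all 3 genes, and each passed without it. The related Cacng3 rose by 1.80 and the kainate receptor gene Grik5 by 0.94. Of 9 GABA-A receptor genes, 3 rose (33.3%, beside 8.04% of all genes) and none fell. The count of rises was 5 without Ctrl28 array 3, 2 without Ctrl array 1 and 1 with the mean of all probe sets. The rises included Gabrb2 with 1154, 1191 and 1542 against 273.3, 464.1 and 562.5 (1.63, 0.000533) and Gabra2 with 293.4, 286.6 and 180.5 against 55.9, 74.8 and 106.2 (1.70, 0.00129). Gabra2 did not pass as a mean of its probe sets (log2 1.21, adjusted p = 0.0571). None of the 9 genes of metabotropic glutamate receptors and Homer proteins passed the test with all arrays.

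Channels, adhesion proteins and the release machinery moved less uniformly. Of 48 potassium channel genes 9 rose (18.8%, beside 8.04% of all genes) and 1 fell. Their median log2 difference was 0.27 from Ctrl28 and -0.03 from Ctrl. Kcnt2, a sodium-activated channel, stood at 183.0, 189.1 and 253.8 in 12 m and at 41.4, 67.1 and 89.8 in Ctrl28 (log2 1.71, adjusted p = 0.000804). Kcnq3, of the channel that carries the M current, rose by 0.94 with the probe set of highest signal and by 0.42 as a mean of its probe sets (adjusted p = 0.0613). Without 12 m array 3, 5 potassium channel genes rose, and after median centring 5 rose and 3 fell. Long adhesion and synaptic genes rose in 9 of 40 cases (22.5%, beside 8.04% of all genes) and fell in 4 (10%, beside 8.3%). There were 6 rises and 1 fall without 12 m array 3, and 7 rises and 6 falls after median centring (median log2 -0.006). Nlgn1, the neuroligin of excitatory synapses, stood at 378.1, 380.5 and 346.3 against 107.9, 204.0 and 210.7 (1.14, 0.00362), and Nrxn3 (1.05) and Ptprd (1.04) rose too. Dpp6, an auxiliary subunit of potassium channels, fell from 881.1, 597.6 and 639.3 to 398.6, 284.7 and 201.7 (-1.29, 0.000681). Of 43 genes of vesicle release 7 rose (16.3%, beside 8.04% of all genes) and 3 fell (6.98%, beside 8.3%). The count of rises was 12 without Ctrl28 array 1 and 4 without 12 m array 2 or 3. After median centring 4 of the vesicle release genes rose and 7 fell (median log2 0.004). Their median log2 difference was 0.21 from Ctrl28 and -0.10 from Ctrl. The active zone genes Unc13a (1.09) and Pclo (0.68) were among the rises. Cplx2, which encodes complexin 2, fell by a log2 difference of 0.96 but had 0.26 as a mean of its probe sets (adjusted p = 0.228). The dynein subunit gene Dync1li2 rose by 1.29.

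Immediate early genes are those that neurons transcribe within minutes of activity. Of 36 tested, 11 rose (30.6%, beside 8.04% of all genes), 1 fell and 24 did not pass, with a median log2 difference of 0.61. The count of rises was 5 without 12 m array 3. Junb, an AP-1 subunit, had signals of 129.4, 138.4 and 162.1 in 12 m and of 48.8, 42.4 and 32.6 in Ctrl28 (log2 1.81, SE 0.20, adjusted p = 6.81e-05). Nr4a1, a nuclear receptor, stood at 618.9, 688.5 and 1006 against 388.8, 362.6 and 172.5 (1.38, 0.00826). Egr4, a zinc finger factor, stood at 49.2, 40.9 and 54.9 against 22.1, 20.3 and 12.7 (1.43, 0.00197). The groups did not overlap in these genes, and Ctrl28 array 3 was the lowest of the 6 arrays in each. Egr2 (1.62, 0.00589) and the stress response gene Gadd45b (1.07, 0.000628) rose as well, although Egr2 did not pass as a mean of its probe sets (adjusted p = 0.0743).

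Fos, the AP-1 subunit most used as a marker of active neurons, stood at 569.4, 731.6 and 1281 in 12 m and at 284.4, 277.5 and 70.2 in Ctrl28 (log2 2.20, adjusted p = 0.0138). Arc, which encodes a protein of synaptic scaling, stood at 365.7, 437.2 and 625.6 against 204.1, 173.0 and 69.4 (1.78, 0.0177). In both genes 12 m array 3 was the highest and Ctrl28 array 3 the lowest. Without 12 m array 3 neither passed (Fos log2 1.87 and adjusted p = 0.0614, Arc 1.57 and 0.0697), and the same held for Ier2 and Dusp1. Npas4 (1.56, adjusted p = 0.307) and Egr1 (0.64, 0.0653) did not pass with all arrays. In Ctrl the signals were 84.6, 157.5 and 80.5 for Fos and 46.6, 53.3 and 36.3 for Egr4, so Fos was lower there than in 12 m while Egr4 overlapped with 12 m.

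The promoters of Junb, Nr4a1, Egr4 and Fos are shown. Cyclic AMP response elements (CRE) are the best known entry point of activity into immediate early genes. The 250 bases before the transcription start are given from RefSeq on build GRCm38.p6, 5′ to 3′ on the strand of the gene. Capitals mark TGACG or, for the other strand, CGTCA, the core of the element. The windows are chr8:84978749-84978998 on the minus strand for Junb, chr15:101266596-101266845 on the plus strand for Nr4a1, chr6:85513590-85513839 on the minus strand for Egr4 and chr12:85473640-85473889 on the plus strand for Fos.
Junb: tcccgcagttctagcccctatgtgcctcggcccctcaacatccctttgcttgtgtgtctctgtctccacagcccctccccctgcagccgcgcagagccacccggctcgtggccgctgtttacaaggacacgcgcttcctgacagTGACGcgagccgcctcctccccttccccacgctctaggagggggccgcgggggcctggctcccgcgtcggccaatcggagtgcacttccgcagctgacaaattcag
Nr4a1: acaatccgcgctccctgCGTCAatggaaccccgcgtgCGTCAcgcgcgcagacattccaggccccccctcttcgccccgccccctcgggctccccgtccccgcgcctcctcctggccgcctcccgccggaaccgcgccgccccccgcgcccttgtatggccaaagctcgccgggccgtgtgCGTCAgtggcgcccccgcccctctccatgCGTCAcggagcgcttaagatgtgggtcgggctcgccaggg
Egr4: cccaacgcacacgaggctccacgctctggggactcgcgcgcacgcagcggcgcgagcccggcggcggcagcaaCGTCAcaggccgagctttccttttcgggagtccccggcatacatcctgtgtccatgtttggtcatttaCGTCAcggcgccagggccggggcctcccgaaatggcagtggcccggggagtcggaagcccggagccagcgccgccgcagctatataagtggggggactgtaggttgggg
Fos: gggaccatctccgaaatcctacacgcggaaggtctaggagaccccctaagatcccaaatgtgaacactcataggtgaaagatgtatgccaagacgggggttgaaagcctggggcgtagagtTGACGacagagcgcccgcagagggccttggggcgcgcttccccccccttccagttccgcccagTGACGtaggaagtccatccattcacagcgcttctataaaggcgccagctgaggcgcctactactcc
Junb holds 1 match, Egr4 and Fos hold 2 each and Nr4a1 holds 4. Among windows not shown, that of Gadd45b held 0 matches, and those of Egr2 held 0 or 2 depending on the start. A match of TGACG on either strand was found in 19 of 29 immediate early genes with a window (65.5%) and in 30.9% of the 9472 tested genes with a window. The full palindrome TGACGTCA, which contains both forms of the core, was found in 2 of 29 (6.9%), beside 3.1% of all. Some genes have windows at several starts, and a match at any of them was counted. Of the 19 genes with a core, 7 rose, and Junb had the smallest p among the 19. In the whole list 11 of 36 rose (30.6%), beside 8.04% of all genes. A link between the core and the rise was not tested. These matches describe letters of the promoters and are no measure of binding.

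**Figure D4:**
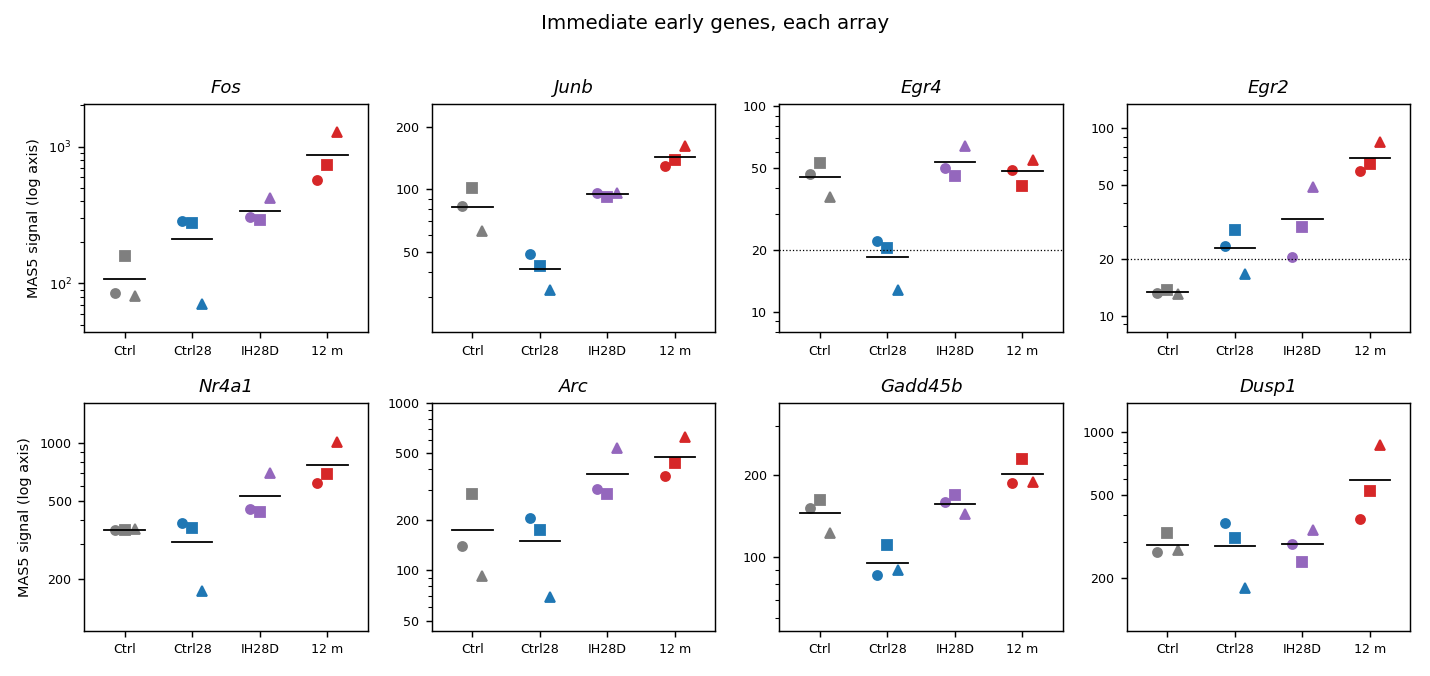
MAS5 signals (log axis) of 8 immediate early genes on the 3 arrays of Ctrl, Ctrl28, IH28D and 12 m; circles, squares and triangles are arrays 1, 2 and 3, bars are group means and the dotted line is a signal of 20. The 12 m arrays lie above the Ctrl28 arrays in each gene, and array 3 is the highest 12 m array in all of them but Gadd45b.

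Clock genes, whose level follows the hour of the day, had 3 rises (14.3%) and 2 falls (9.52%) among 21, and 1 fall without Ctrl28 array 1. Of all genes, 8.04% rose and 8.3% fell. Dbp, an output of the clock with a strong daily rhythm, stood at 733.5, 633.8 and 980.3 in 12 m and at 2017, 1203 and 1021 in Ctrl28 (log2 -0.81, adjusted p = 0.0213), and did not pass without Ctrl28 array 1 (-0.53, 0.0705). Clock rose by 1.04 with overlapping groups (adjusted p = 0.0259), and not without Ctrl28 array 1 (0.64, 0.0965). Rorb, an activator of the clock loop that is also a gene of neocortex, stood at 127.9, 143.6 and 347.6 against 24.5, 72.2 and 102.6 (1.71, 0.00862) and was highest on the array that carried more neocortical signal. Per1 did not pass with all arrays (0.58, 0.0739) but did without Ctrl28 array 1 (0.92, 0.000765). The E-box CACGTG, to which the clock factors bind, was found on either strand in 4 of 18 clock genes with a window (22.2%), beside 10.1% of all genes, and the D-box TTATGTAA in 1 of 18 (5.6%), beside 0.6%.

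Lists of the respiratory complexes and of the ribosomes held falls and no rises with all arrays. Respiratory complex I, which passes electrons from NADH to ubiquinone, had 10 falls and no rise among 41 genes (24.4% fell, beside 8.3% of all genes), with a median log2 difference of -0.50. Complexes II to V had 10 falls and no rise among 46 (21.7%, median -0.43). Mitochondrial ribosomal proteins had 21 falls and no rise among 76 (27.6%, beside 8.3% of all genes, median -0.44). Sdhb, the iron-sulfur subunit of complex II, had signals of 1377, 1418 and 1427 in 12 m and of 2363, 2029 and 2094 in Ctrl28 (log2 -0.62, adjusted p = 0.0137). Ndufaf6, an assembly factor of complex I, stood at 53.5, 57.9 and 54.9 against 115.8, 130.9 and 99.0 (-1.05, 0.00126). Citrate synthase (Cs) stood at 1660, 1673 and 1624 against 3284, 2285 and 2197 (-0.62, 0.00416), though it did not pass as a mean of its probe sets (-0.21, 0.162). The values of these 3 genes were tight in 12 m, and Ctrl28 array 1 was high for Cs and Sdhb. Further falls were those of the subunit genes Ndufb11 (-0.72) and Atp5pb (-0.47), of Suclg1 of the citric acid cycle (-0.51), and of Mrpl47 (-0.68) and Mrps14 (-0.71) of the mitochondrial ribosome. The citric acid cycle list, to which Cs belongs too, had 6 falls (35.3%) and 1 rise, that of Ogdh, among 17 genes. Its count of falls was 3 without 12 m array 3 and 8 without Ctrl28 array 2.

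The counts of these lists depended on single arrays. Without Ctrl28 array 1, 6 genes of complex I, 6 of complexes II to V and 13 of the mitochondrial ribosome fell, with medians of -0.24, -0.24 and -0.27. Without 12 m array 3 the counts were 2, 4 and 9, and the medians -0.49, -0.42 and -0.41, so the size of the shift held there while fewer genes passed. Without Ctrl28 array 2, 18 and 17 genes of the respiratory complexes fell, and without Ctrl28 array 3, 34 of the mitochondrial ribosome. In a fit that included the gap of each array, 4, 3 and 6 fell. After median centring 26, 27 and 48 fell. The mean log2 signal of complex I was 9.84 to 9.93 in 12 m, 10.8 on Ctrl28 array 1 and 10.1 on both other Ctrl28 arrays. The gap of Actb and Gapdh was widest on that same array, and its part in the result was not tested beyond these values.

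Cytosolic ribosomal proteins fell in 11 of 44 cases (25%, beside 8.3% of all genes) and rose in none (median log2 -0.41). There were 5 falls without Ctrl28 array 1, 4 without 12 m array 2 or 3 and 21 without Ctrl28 array 2. Rpl8 had signals of 1797, 1678 and 1775 in 12 m and of 2507, 2564 and 2658 in Ctrl28 (-0.56, adjusted p = 0.0103), with no array standing apart, and Rps6 (-0.76) and Rps10 (-0.74) fell as well. Proteasome genes fell in 13 of 39 cases (33.3%, beside 8.3% of all genes, median -0.35) and rose in none. Psma7, a subunit of the core particle, stood at 550.5, 523.2 and 573.5 against 901.9, 847.7 and 853.4 (-0.66, 0.00167), and Psmc2 (-0.67) and Psma5 (-0.72) fell too. The proteasome count was 11 without Ctrl28 array 1 and 5 without 12 m array 3. Genes of ubiquitin conjugation did not share this direction, with 14 rises (16.9%, beside 8.04% of all genes) and 3 falls (3.61%, beside 8.3%) among 83. Yet there were 6 rises without 12 m array 2, 21 without Ctrl28 array 3 and 4 rises and 10 falls after median centring. Heat shock genes stood near the shares over all genes, with 4 rises (6.56%) and 6 falls (9.84%) among 61, 1 rise without 12 m array 3 and 1 fall without 12 m array 2. Among the rises was Hsp90aa1, the stress-inducible form of HSP90, at 4888, 5001 and 4950 in 12 m and at 2149, 3402 and 3867 in Ctrl28 (0.70, 0.00543).

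Some of the named genes were higher in 12 m than in Ctrl28 but not higher than in Ctrl, the other young control. They are put together here for this order, and how many of all genes share it was not counted. The comparisons share the 12 m arrays, and their values are given side by side. Pkm, which encodes pyruvate kinase, had signals of 1128, 1181 and 1189 in 12 m, of 825.6, 562.0 and 542.2 in Ctrl28 and of 1756, 1900 and 1644 in Ctrl. Its log2 difference was 0.88 from Ctrl28 (adjusted p = 0.000697) and -0.60 from Ctrl (0.00135). Pcsk1n, which encodes the prohormone convertase inhibitor proSAAS, stood at 747.0, 714.2 and 886.7 in 12 m, at 320.5 to 423.5 in Ctrl28 and at 1350 to 1578 in Ctrl, with differences of 1.12 (0.000187) and -0.93 (6.72e-05). Kif1a, the kinesin of synaptic vesicle precursors, stood at 190.4, 168.7 and 223.6 in 12 m, at 32.2, 82.0 and 65.4 in Ctrl28 and at 201.1 to 315.4 in Ctrl, and its difference from Ctrl did not pass (-0.28, 0.347). Ctrl28 was the lowest of the 3 groups for each of these genes, which follows from how they were put together. The same order held for Ogdh of the citric acid cycle, which rose against Ctrl28 (0.64, 0.00299) and was lower than Ctrl (-0.56, 0.00149), although it did not pass against Ctrl28 as a mean of its probe sets (0.15, 0.514). Akt1 differed by 0.78 from Ctrl28 (0.00167) and by -0.47 from Ctrl (0.00786), and Unc13a by 1.09 and 0.05 (adjusted p against Ctrl 0.818). Of 13 glycolysis genes 3 rose against Ctrl28 (23.1%, beside 8.04% of all genes), with 1 without 12 m array 1 or 3 and 5 after quantile normalization. Their median difference was -0.03 from Ctrl28 and -0.60 from Ctrl.

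**Figure D5:**
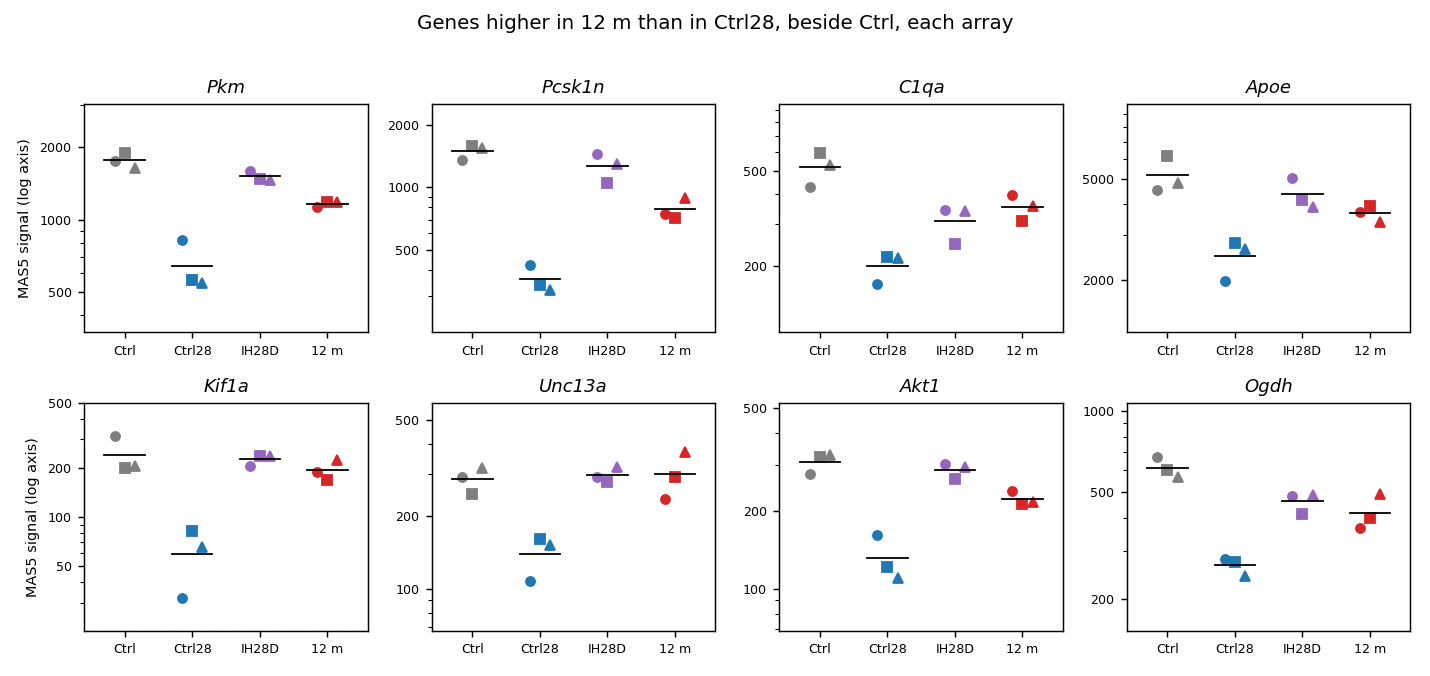
MAS5 signals (log axis) of 8 genes, put together for their order over the groups, on the 3 arrays of Ctrl, Ctrl28, IH28D and 12 m. Circles, squares and triangles are arrays 1, 2 and 3 and bars are group means. The 12 m arrays lie above all Ctrl28 arrays in each gene, and the Ctrl28 arrays also lie below those of Ctrl and IH28D.

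Complement genes of microglia followed this order too. C1qa stood at 394.3, 306.8 and 354.2 in 12 m, at 168.5, 216.8 and 215.5 in Ctrl28 and at 428.3, 595.4 and 530.3 in Ctrl. Its log2 difference was 0.81 from Ctrl28 (adjusted p = 0.00441) and -0.55 from Ctrl (0.0115). C1qb stood at 286.6, 250.2 and 293.8 in 12 m, at 133.7 to 170.2 in Ctrl28 and at 371.8 to 490.4 in Ctrl, with differences of 0.83 (0.00233) and -0.69 (0.00149), and did not pass against Ctrl28 as a mean of its probe sets (0.38, 0.132). C1qc rose by 0.54 (0.0246) with the same order of the groups, and did not pass without 12 m array 3 (0.54, 0.0593). The direction for C1q therefore depended on which young control was used. Of 27 genes of microglia and complement 3 rose (11.1%, beside 8.04% of all genes), which are these C1q genes, and 1 fell (3.7%, beside 8.3%). The fall was that of lysozyme (Lyz1), at 71.3, 85.0 and 79.3 in 12 m and 350.5, 167.2 and 140.6 in Ctrl28 (-1.37, 0.00794). The list as a whole had a median difference of 0.00 and summed signals of 5404 to 5818 in 12 m and 5525 to 7159 in Ctrl28.

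Among 27 genes of interferon response and MHC class I, 1 rose (3.7%, beside 8.04% of all genes) and 2 fell (7.41%, beside 8.3%). H2-D1, an MHC class I heavy chain, rose by 0.73 (adjusted p = 0.0142) and did not pass without 12 m array 3 (0.60, 0.065).

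Astrocyte genes fell in 7 of 29 cases (24.1%, beside 8.3% of all genes) and rose in 1 (3.45%, beside 8.04%). Apoe, the main lipid carrier of the brain, was the rise, at 3719, 3912 and 3393 in 12 m, 1984, 2799 and 2657 in Ctrl28 and 4533 to 6191 in Ctrl, with differences of 0.58 from Ctrl28 (adjusted p = 0.0113) and -0.49 from Ctrl (0.00882). Gfap, the intermediate filament of astrocytes, stood at 234.4, 180.8 and 54.1 in 12 m and at 428.2, 253.7 and 236.4 in Ctrl28 (-1.16, 0.042). It did not pass without 12 m array 3 (-0.52, 0.192) nor without Ctrl28 array 1 (-0.89, 0.127). Id3, an inhibitor of helix-loop-helix factors, fell more evenly, at 191.7, 148.2 and 122.1 against 225.3, 294.3 and 296.5 (-0.83, 0.00492). The count of astrocyte genes that fell was 1 without 12 m array 3 and 3 without Ctrl28 array 1, where 4 rose.

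Of 31 genes of oligodendrocytes and myelin 1 rose (3.23%, beside 8.04% of all genes) and 2 fell (6.45%, beside 8.3%). Ermn, a cytoskeletal protein of mature oligodendrocytes, was the rise, at 478.5, 447.1 and 428.8 in 12 m and 91.0, 247.7 and 260.5 in Ctrl28 (1.32, 0.00362). Gsn, which encodes the actin-severing gelsolin, fell from 521.3 to 850.5 to 302.9 to 360.3 (-0.94, 0.00439), although not as a mean of its probe sets (-0.63, 0.0947). Without Ctrl28 array 1 the myelin counts were 5 rises and 4 falls. Of 29 genes of endothelium and pericytes 1 fell (3.45%, beside 8.3% of all genes), the thyroid hormone transporter gene Slco1c1 (-0.82, 0.00904). None of 16 genes of meninges and fibroblasts passed with all arrays.

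Markers of pyramidal and granule neurons were called no more often than all genes. Of 25 genes of CA1 and CA3 pyramidal neurons 1 rose (4%, beside 8.04% of all genes) and 2 fell (8%, beside 8.3%). Of 25 genes of dentate granule cells 1 rose (4%) and 1 fell (4%). Without 12 m array 3, 3 pyramidal genes rose and none fell, and their median turned from -0.33 to 0.04. Leaving out 12 m array 1 gave 5 falls of pyramidal and 4 of granule cell genes. Prox1, the homeobox factor of granule cells, stood at 82.2, 65.5 and below 20 in 12 m and at 84.7, 149.6 and 197.0 in Ctrl28 (log2 -1.59, adjusted p = 0.0146). Its lowest value was on 12 m array 3, and without that array the difference was -0.89 (0.0444). In Ctrl, Prox1 stood at 62.4 to 80.9, within the range of the 12 m arrays 1 and 2 or just below it. Spock1, a proteoglycan gene of CA neurons, rose by 0.90 (0.00266) and equalled Ctrl within its error (log2 against Ctrl -0.00, adjusted p = 0.989).

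Genes of neurogenesis and immature neurons rose in 4 of 29 cases (13.8%, beside 8.04% of all genes) and fell in 2 (6.9%, beside 8.3%). There were 6 falls without 12 m array 1 and none without 12 m array 2 or 3. The members of smallest p were Elavl3 (0.88, adjusted p = 0.000877) and Elavl2 (0.75, 0.00345), neuronal RNA-binding proteins that mature neurons make as well. Dcx, the microtubule protein of migrating new neurons, stood at 57.9, 67.9 and 89.9 in 12 m and at 29.9, 42.7 and 40.4 in Ctrl28 (0.93, 0.0244), and did not pass without 12 m array 3 (0.75, 0.103) or without Ctrl28 array 1 (0.77, 0.0708).

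Tau kinases and phosphatases were of interest because the study followed tau phosphorylation. Of 37 genes 6 rose (16.2%, beside 8.04% of all genes) and 3 fell (8.11%, beside 8.3%), and 10 rose without Ctrl28 array 1. The median log2 difference was 0.05 from Ctrl28 and -0.24 from Ctrl. Gsk3b, a main tau kinase, had signals of 682.0, 715.6 and 791.0 in 12 m, of 348.3, 398.6 and 387.9 in Ctrl28 and of 555.8, 357.1 and 405.0 in Ctrl (log2 0.95 from Ctrl28, adjusted p = 0.000697), and did not pass as a mean of its probe sets (0.42, 0.0906). The microtubule affinity kinase gene Mark2 rose by 0.90 (0.00237). Cdk5r2, which encodes the Cdk5 activator p39, fell from 498.4 to 742.8 to 252.7 to 344.3 (-1.05, 0.00233), and the protein kinase A gene Prkaca fell by 0.81 on the log2 scale (0.00277). Mapt, which encodes tau itself, differed by -0.06 (0.776) and Cdk5 by 0.25 (0.228), and neither passed. The mean of all probe sets of Mapt gave 0.49 (0.00986), so its probe sets disagree. Of 18 genes of the amyloid precursor and secretases 1 rose (5.56%) and 3 fell (16.7%, beside 8.3% of all genes), and without 12 m array 2 none fell. Of 24 hypoxia response genes 1 rose (4.17%) and 4 fell (16.7%, beside 8.3% of all genes), or 2 and 1 without 12 m array 3. Vegfa, the hypoxia-induced growth factor, differed by 0.31 (0.309), and Glud1, which encodes glutamate dehydrogenase, by -0.17 with all arrays (0.514) and by -0.45 without Ctrl28 array 1 (0.00792).

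Several of the genes above have further probe sets that weaken their call. As a mean of all probe sets, Akt1 (adjusted p = 0.067), Dbp (0.0893), Spock1 (0.113), Dcx (0.125), Elavl2 (0.186), Hsp90aa1 (0.22), Rorb (0.231), Prkaca (0.275) and Gfap (0.573) did not pass. The same mean brought the log2 difference closer to 0, that of Mfap3l to 0.97, of Neat1 to 1.15, of Kif1a to 1.05, of Brd2 to -0.66 and of Dpp6 to -0.61, and these passed. With the gap of each array in the fit, Lyz1 (0.0569), H2-D1 (0.0573), Rorb (0.0626), Psma5 (0.0637), Apoe (0.0665), Ndufb11 (0.0718), Atp5pb (0.0757), Rps10 (0.0757), Dcx (0.107), Ier2 (0.119), Dbp (0.144), Gfap (0.166) and Clock (0.194) did not pass. After median centring Dusp1 (0.0604), Apoe (0.0734) and C1qc (0.203) did not.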

How the data were processed

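The authors deposited MAS5 signals of 18 arrays as log2 values. The trimmed mean of the unlogged signals was 100.03 to 100.04 on every array, which settles the scale, and the MAS5 version is not given in the sources used here. RNA had been extracted with guanidine, phenol and chloroform. The methods call a signal above 20 expressed. Of 45101 probe sets, 64 are controls, 34945 name 1 gene in GEO's platform annotation, 932 several and 9160 none, and 18193 genes have a probe set.

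For each gene the probe set of highest mean signal was kept where that mean exceeded 20 (11656 genes). Differences were tested with limma 3.58.1 (R 4.3.3) on log2 signals, with 1 mean per group over all 18 arrays, a variance trend, Benjamini-Hochberg adjustment over all genes and a threshold of 0.05. On simulated data with 11656 genes and this comparison, 67% of 100 changes of log2 1 and 96% of 100 changes of log2 2 were recovered, and 8 unchanged genes were called. The simulated arrays had independent normal noise and 1 spread per gene for all groups. The wider spread of Ctrl28 was not part of it, so these rates need not hold for the real arrays. The number of arrays limits the precision. The alternatives include the methods' test (Welch) and each array left out.

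Members and gene lists were chosen with earlier results of these data known. Named genes were the 15 largest rises and falls that passed with each of the 6 arrays left out, did not overlap and reached a mean signal of 100, up to 5 members of smallest p per list, and a fixed list. C1ql2 and Fibcd1 were fixed as markers of the tissue. Promoter windows came from RefSeq. One of the largest rises is not reported here.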

Additional observations from a re-analysis of the deposited data

How the results depend on the processing

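With the 12 m and Ctrl28 arrays alone, 172 genes passed (103 rose and 69 fell), of which 165 also passed with all 18 arrays. With Ctrl28 replicate 1 left out as well, an alternative chosen after seeing the data, 1341 passed, of which 572 fell. Median centring gave 572 rises and 2202 falls, and array weights 4157 genes (2080 rises and 2077 falls). The methods' Welch test with adjustment left 1 gene on log2 signals (0 rises and 1 fall) and 0 on unlogged signals (0 rises and 0 falls), against 1427 and 1535 at an unadjusted p below 0.05. Leaving out each of the 18 arrays in turn gave 1145 to 2161 genes, with 636 to 1102 rises and 509 to 1096 falls. Without a minimum signal, with the minimum in either group, with quantile normalization, an offset of 16, the mean of all probe sets, no variance trend or the gap as covariate, 1556 to 1972 genes passed. The replicate numbers did not pair the arrays (correlations of deviations -0.016, 0.033 and -0.049). With a replicate block 1783 genes passed over all arrays and 108 over the 2 groups alone (59 rises and 49 falls). The mean of all probe sets turned the direction of Rian (0.24) and Cplx2 (0.26). Mapt, which did not pass, was at 0.0052 with quantile normalization, at 0.49 (adjusted p = 0.00986) with the mean of all probe sets, and at -0.14 to 0.028 with arrays left out. Of 119 named genes that passed, 100 kept their call with the mean of all probe sets, 105 with the gap as covariate, 110 without 12 m replicate 3, 114 without Ctrl28 replicate 1 and 53 with the 2 groups alone. The cause was not tested.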
